A study of Mus musculus with 7 samples.

Results

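Glycolysis, glucose transport and the response to low oxygen were examined at the transcript level in CD45+CD11b+ splenocytes of mice with acute graft-versus-host disease (aGVHD), a sort gate shared by neutrophils, monocytes and macrophages. The genes were chosen by name: 35 genes that encode glucose transporters, the enzymes of glycolysis, the enzymes and transporters that handle pyruvate and lactate, and regulators and targets of the hypoxia response. Of these, 33 had a named row among the 19494 genes of the array, each with 1 row. Gpi1 and Eno1 were not analysed here. All 7 mice, which the labels call wildtype, had undergone allo-HCT, in which irradiated BALB/cAnN recipients receive bone marrow and T cells from C57BL6/N donors. The ROCK1/2-inhibitor Y-27632 (8 mg/kg in 100 µl) was injected i.p. into 4 mice for 10 days, beginning 4 days after transplantation, while 3 mice received 100 µl PBS as vehicle, and the cells were sorted from the spleen on day 14. The vehicle mice thus carried the same irradiation, graft and donor T cells as the treated mice. The labels give no age or sex of single mice. RNA of 1 mouse was hybridised to 1 Clariom S Mouse array, and mice are named R1 to R4 (inhibitor) and V2 to V4 (vehicle) after the numbers in the labels.

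The authors deposited log2 intensities after Robust Multi-Array Average (RMA) normalization, with array medians between 2.14 and 2.19 and upper quartiles between 3.35 and 3.68. The inhibitor group was compared with the vehicle group in limma over 22139 rows (transcript clusters), and a gene is called where the Benjamini-Hochberg adjusted p is under 0.05, the threshold of the methods. A log2 difference is the inhibitor mean minus the vehicle mean, so that −1 is a fall to one part in 2. CD11b (Itgam) had log2 intensities of 8.56 to 9.15 in inhibitor-treated and 9.08 to 9.66 in vehicle-treated mice, and CD45 (Ptprc) of 9.18 to 9.63 and 8.56 to 9.96, so both markers of the gate were bright on every array. One label field names CXCL12-abundant reticular cells, while the fields for cell type and tissue name CD11b+ CD45+ spleen cells.

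Glycolysis splits glucose into pyruvate in the cytosol. In its preparatory phase glucose is phosphorylated and cleaved into triose phosphates at the cost of ATP, and in its payoff phase the trioses are oxidised to pyruvate with a gain of ATP. Pyruvate is then reduced to lactate and exported, or enters the mitochondrion. Neutrophils draw most of their ATP from this route, and macrophages raise it when activated. At low oxygen, prolyl hydroxylases no longer mark the transcription factor HIF-1α for destruction, and HIF-1 raises the transcription of glucose transporters and most glycolytic enzymes.

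With ROCK1/2-inhibition, 7 of the 33 measured genes fell, 0 rose and 26 missed the threshold. The 7 genes were Slc2a3, Hk3, Adpgk, Aldoa, Tpi1, Pgam1 and Pkm, which spanned glucose uptake (1 of 3 genes), the preparatory phase (4 of 12) and the payoff phase (2 of 7). In GRCm38.p6 they lie on chromosomes 6 (Slc2a3 and Tpi1), 13 (Hk3), 9 (Adpgk and Pkm), 7 (Aldoa) and 19 (Pgam1). None of the 6 genes for the fate of pyruvate and none of the 5 genes of the hypoxia response passed in limma (2 and 0 at an unadjusted p under 0.05). Over all rows 2.23% were called, 1.17% lower and 1.06% higher, whereas 21.2% of the 33 genes were called lower. Among the rows at least as bright as the median gene of the group, 4.08% were called lower and 5.74% higher. At an unadjusted p under 0.05 in limma, 14 of the 33 genes were lower and 0 were higher, where 8.5% of all rows were lower and 6.76% higher. For 11 of the 33 genes every inhibitor mouse lay below every vehicle mouse, and for 0 above (7.03% and 6.22% of all rows). Both shares were larger among bright rows. Of the 3066 rows at least as bright as the median gene of the group, 596 were lower and 760 higher at an unadjusted p under 0.05 in limma. Without overlap between the groups, 465 of these rows were lower and 519 higher. The median log2 difference was −0.48 over the 33 genes (quartiles −1.01 to −0.01), with 25 below 0, and 0.00 over all rows, of which 49.1% were below 0.
The calls depended on single arrays. Leaving out R1 gave 10 called genes, while the count over all rows rose from 494 to 1035. Leaving out V4 gave 6, with 534 of all rows called and Slc2a3 lost (adjusted p = 0.0617 from limma). Leaving out R2, R3, R4, V2 or V3 gave 0, with 11 to 15 of the genes lower at an unadjusted p under 0.05, the 7 among them. The count over all rows then dropped from 494 to 2, 4, 2, 2 and 34 in that order of omitted mice. In sorted cells of mixed type, fewer cells of a type and less RNA per cell cannot be told apart.

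**Figure D1:**
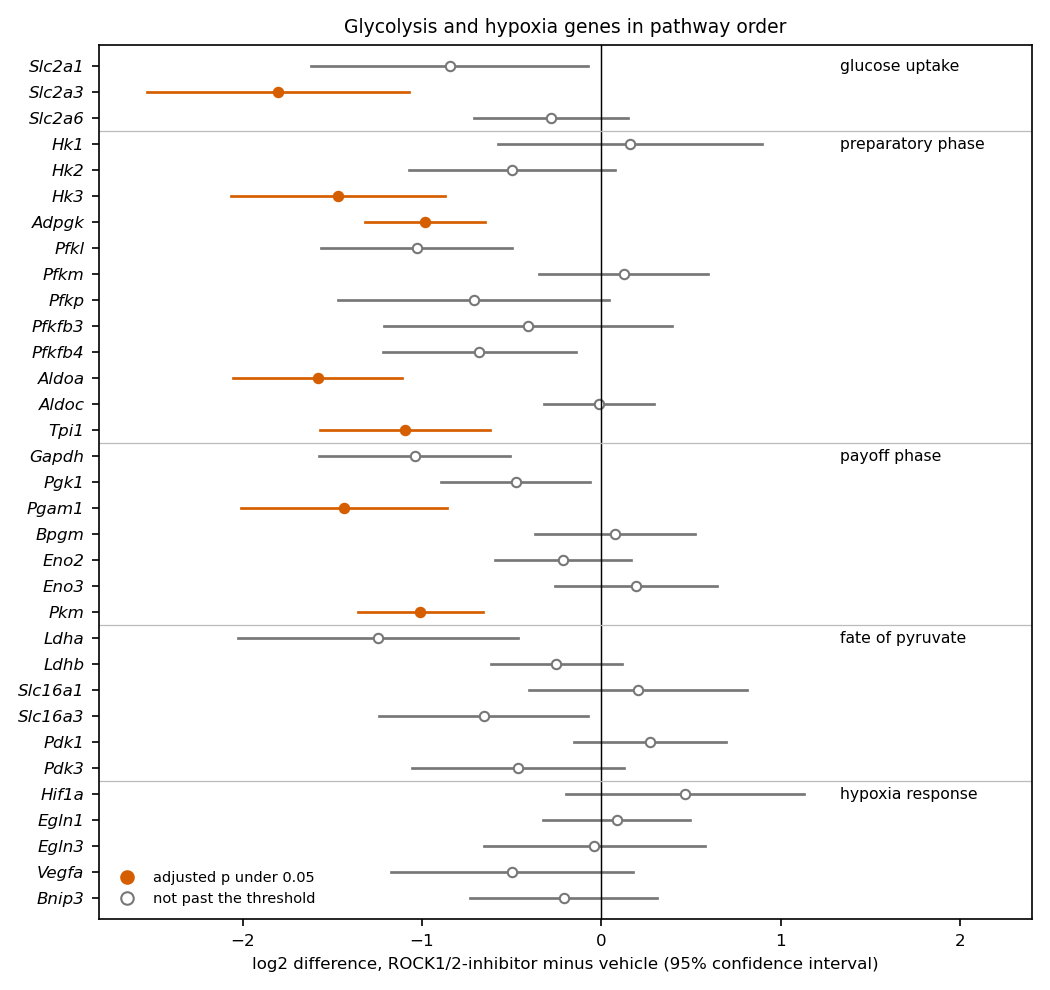
Log2 difference (ROCK1/2-inhibitor, n = 4, minus vehicle, n = 3) of the 33 genes in pathway order, with the 95% confidence interval from limma; filled orange points passed an adjusted p of 0.05. The 7 filled points lie between −1.80 and −0.98, and the 5 genes of the hypoxia response lie between −0.50 and 0.47.

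Glucose enters leukocytes through facilitative transporters, of which GLUT3, encoded by Slc2a3, has a high affinity. Slc2a3 had log2 intensities of 8.13, 7.66 and 8.54 in V2, V3 and V4 and of 6.50, 7.02, 6.04 and 5.67 in R1, R2, R3 and R4. Every inhibitor mouse lay below every vehicle mouse, and the log2 difference was −1.80 (standard error 0.32, adjusted p = 0.0296 from limma). It was the largest fall among the 33 genes. Slc2a1 encodes GLUT1, the widely expressed transporter, and had 5.98, 5.72 and 6.58 in the vehicle mice against 5.58, 5.30, 5.78 and 4.33 in R1 to R4. Its lowest value was that of R4, R3 overlapped with the vehicle mice, and the log2 difference was −0.85 (standard error 0.34, adjusted p = 0.275 from limma). Slc2a6, which encodes GLUT6, a transporter found on intracellular membranes, had 4.71, 4.60 and 4.27 in V2 to V4 and 4.59, 4.26, 4.19 and 3.95 with the inhibitor, and its groups overlapped (log2 difference −0.28, adjusted p = 0.58 from limma).

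Hexokinases trap glucose in the cell as glucose 6-phosphate. Hk3, the hexokinase found mainly in leukocytes, fell from 6.85 ± 0.47 (SD, n = 3) in vehicle-treated to 5.38 ± 0.37 (SD, n = 4) in inhibitor-treated mice. Its single values were 7.33, 6.80 and 6.40 in V2, V3 and V4 and 5.46, 4.98, 5.22 and 5.85 in R1, R2, R3 and R4. No inhibitor mouse reached the lowest vehicle mouse, V4, and the log2 difference was −1.47 (standard error 0.26, adjusted p = 0.0299 from limma). Hk1, the hexokinase of most tissues, had 5.59, 4.78 and 5.90 in V2 to V4 and 4.88, 5.96, 5.58 and 5.92 in R1 to R4, and its log2 difference was 0.16 (standard error 0.33, adjusted p = 0.891 from limma). Hk2, the inducible form that binds to mitochondria, had 5.04, 4.62 and 4.69 and 3.73, 4.65, 4.71 and 4.06 in the same order, with R1 lowest and R2 and R3 within the vehicle range (log2 difference −0.50, adjusted p = 0.416 from limma). Adpgk encodes a glucokinase of the endoplasmic reticulum that uses ADP in place of ATP. It had 9.51, 9.15 and 9.16 in V2, V3 and V4 and 8.31, 8.31, 8.29 and 8.26 in R1, R2, R3 and R4. The inhibitor mice were nearly equal, and Adpgk fell by 0.98 (standard error 0.15, adjusted p = 0.0205 from limma).

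Phosphofructokinase commits glucose to glycolysis and is built from liver-, muscle- and platelet-type subunits. None of the genes for these subunits passed. The liver-type gene Pfkl had 3.58, 3.11 and 3.87 in V2, V3 and V4 and 2.72, 2.81, 2.37 and 2.08 in R1, R2, R3 and R4, without overlap between the groups, and a log2 difference of −1.03 (standard error 0.24, adjusted p = 0.0584 from limma). Pfkp, the platelet type, had a log2 difference of −0.71 (95% confidence interval −1.47 to 0.04, adjusted p = 0.365 from limma), with R1 and R3 close to V2 and V3. Pfkm, the muscle type, was dim and had 0.12 (95% confidence interval −0.35 to 0.60). Pfkfb3 and Pfkfb4 encode enzymes that make and break an activator of phosphofructokinase. Pfkfb4 had 6.42, 5.86 and 6.53 in V2 to V4 and 5.21, 5.40, 6.03 and 5.71 in R1 to R4 (log2 difference −0.68, adjusted p = 0.198), and Pfkfb3 had 4.89, 5.19 and 5.29 and 4.02, 4.54, 5.78 and 4.52 (log2 difference −0.41, adjusted p = 0.691, both from limma). R3 was the inhibitor mouse with the highest value for both and lay within the vehicle range for Pfkfb4 and above it for Pfkfb3.

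Aldolase cleaves the phosphorylated hexose, and triosephosphate isomerase interconverts its products. Aldoa, the main aldolase of muscle and blood cells, had 9.77, 9.55 and 9.40 in V2, V3 and V4 and 8.44, 8.05, 7.86 and 7.61 in R1, R2, R3 and R4. The highest inhibitor mouse, R1, lay well below the lowest vehicle mouse, V4. The log2 difference was −1.58 (standard error 0.21, adjusted p = 0.0178 from limma), with the smallest p among the 33 genes. Aldoc, an aldolase of brain, had values of 2.11 to 2.32 in vehicle-treated and 2.11 to 2.27 in inhibitor-treated mice, near the array median, and a log2 difference of −0.01 (95% confidence interval −0.32 to 0.29). Tpi1, the gene of triosephosphate isomerase, had 7.20, 6.68 and 6.49 in V2, V3 and V4 and 5.96, 5.52, 5.84 and 5.46 in R1, R2, R3 and R4. Its groups did not overlap, and it fell by 1.10 (standard error 0.21, adjusted p = 0.0374 from limma).

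In the payoff phase, Pgam1 and Pkm fell, while Gapdh and Pgk1 did not pass. Phosphoglycerate mutase, encoded by Pgam1, moves the phosphate group that pyruvate kinase, encoded by Pkm, later transfers to ADP. Pgam1 had 7.27, 7.03 and 6.96 in V2, V3 and V4 and 5.94, 5.84, 5.90 and 4.92 in R1, R2, R3 and R4. R4 lay about 1 unit below the other inhibitor mice, which were themselves below all vehicle mice, and the log2 difference was −1.43 (standard error 0.25, adjusted p = 0.029 from limma). Pkm had 9.72, 9.65 and 9.96 in V2, V3 and V4 and 8.94, 8.76, 8.78 and 8.57 in R1, R2, R3 and R4. Within each group its values lay close together, with means of 9.77 ± 0.16 (SD, n = 3) and 8.77 ± 0.15 (SD, n = 4). Pkm fell by 1.01 (standard error 0.15, adjusted p = 0.0212 from limma). Gapdh, which carries out the only oxidation in glycolysis and is often used as a reference gene, had 10.13, 10.24 and 10.48 in V2, V3 and V4 and 9.83, 9.28, 9.06 and 8.81 in R1, R2, R3 and R4. Its groups did not overlap, with R1 nearest to the vehicle mice, and the log2 difference was −1.04 (standard error 0.24, adjusted p = 0.057 from limma), just outside the threshold. Gapdh passed in 4 of 9 alternatives that kept all arrays, with adjusted p between 0.0250 and 0.0655 from limma. Pgk1, the first ATP-yielding enzyme, had 7.90, 8.02 and 8.23 in V2 to V4 and 7.86, 7.73, 7.47 and 7.24 in R1 to R4, also without overlap (log2 difference −0.48, adjusted p = 0.248 from limma). Bpgm, which makes a regulator of haemoglobin in red cells, and the enolase genes Eno2 of neurons and Eno3 of muscle were dim, with log2 differences of 0.08, −0.21 and 0.19. Gapdh and other abundant glycolytic genes have near-identical processed pseudogenes, and the share of these in the signal was not tested.

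**Figure D2:**
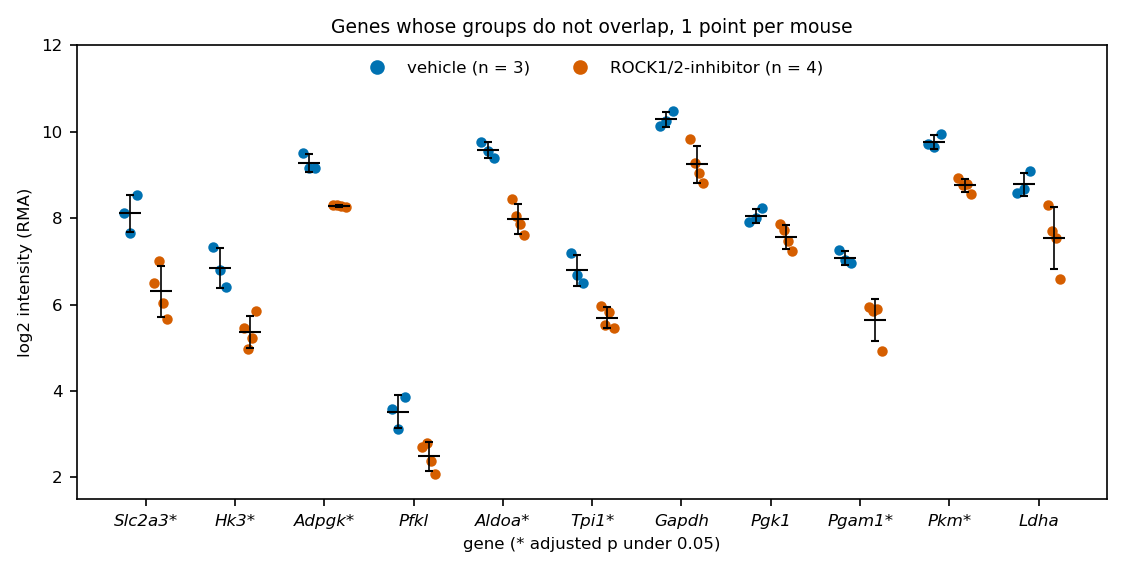
Log2 RMA intensity of each mouse (points), with the group mean (bar) and SD (whiskers), for the 11 genes whose groups do not overlap, in pathway order; an asterisk marks an adjusted p under 0.05. The log2 differences run from −1.80 for Slc2a3 to −0.48 for Pgk1, and R4 lies lowest for each gene but Hk3; levels of different genes cannot be compared, since each has its own probes.

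Lactate dehydrogenase turns pyruvate into lactate and restores the NAD+ that Gapdh uses. Ldha had 8.60, 8.68 and 9.10 in V2, V3 and V4 and 8.32, 7.71, 7.55 and 6.61 in R1, R2, R3 and R4. The inhibitor mice were widely spread but stayed below the vehicle mice, and with this spread the log2 difference of −1.25 (standard error 0.35) had an adjusted p = 0.104 from limma. Without R1, the mouse nearest to the vehicle group, it was −1.50 (adjusted p = 0.0262 from limma), the only one of the 7 fits with an array left out in which Ldha was called. Over those fits it ran from −1.50 to −0.93, with adjusted p up to 0.229. Ldhb, the heart form, was dim (log2 difference −0.25, 95% confidence interval −0.62 to 0.11). Slc16a3 encodes MCT4, which exports lactate from glycolytic cells, and had 6.74, 7.14 and 7.75 in V2 to V4 and 6.67, 6.90, 6.45 and 6.18 in R1 to R4. R2 lay above V2, and the log2 difference of −0.66 did not pass (adjusted p = 0.258 from limma). Slc16a1, which encodes the more widely expressed transporter MCT1, was dim and had a log2 difference of 0.21. Pdk1 and Pdk3 encode kinases that switch off pyruvate dehydrogenase, and had log2 differences of 0.27 (95% confidence interval −0.15 to 0.69) and −0.47 (−1.06 to 0.12).

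The 5 genes of the hypoxia response had a median log2 difference of −0.04, and each had overlapping groups. Hif1a, the gene of HIF-1α, had 4.93, 5.15 and 5.71 in V2, V3 and V4 and 5.16, 5.45, 6.30 and 5.99 in R1, R2, R3 and R4. R3 and R4 lay above all vehicle mice and R1 and R2 among them, for a log2 difference of 0.47 (95% confidence interval −0.20 to 1.13, adjusted p = 0.545 from limma). HIF-1α is mainly controlled through the stability of its protein, which arrays do not measure. Egln1 and Egln3, which encode the prolyl hydroxylases PHD2 and PHD3 and are themselves induced by HIF-1, had log2 differences of 0.08 (−0.32 to 0.49) and −0.04 (−0.66 to 0.58, with the sign turned with array weights, after a second quantile normalization and after cyclic loess). Vegfa, the angiogenic growth factor, had 3.93, 3.08 and 4.16 in V2 to V4 and 2.94, 3.22, 3.82 and 2.92 in R1 to R4 (log2 difference −0.50, 95% confidence interval −1.18 to 0.17). Bnip3, which tags mitochondria for removal, had −0.21 (−0.73 to 0.31). The interval of Vegfa thus reached past the log2 difference of Pkm, −1.01.

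Several steps are served by paralogs, and within each mouse the log2 difference between paralogs was compared between the groups (exact permutation test over 35 splits of the mice, two-sided, where the smallest possible p is 0.0286). Of 16 pairs, 2 reached that p, and 0 passed after Benjamini-Hochberg adjustment over the pairs. With so few splits a pair could pass only if many pairs reached the smallest p at once. The lack of a pass therefore does not show that paralogs responded alike. For Aldoa against Aldoc the difference in log2 change was −1.57 (exact p = 0.0286, adjusted p = 0.229), with inhibitor mice at 5.43 to 6.25 and vehicle mice at 7.22 to 7.66 in the log2 difference of the pair. For Pfkl against Pfkm it was −1.15 (exact p = 0.0286, adjusted p = 0.229). Both comparisons set a brighter gene against one near the array median. For Slc2a1 against Slc2a3 it was 0.96 and for Slc2a3 against Slc2a6 −1.52, without overlap between the groups (exact p = 0.0571 for each, adjusted p = 0.229). For Hk1 against Hk3 it was 1.63 (exact p = 0.0857, adjusted p = 0.229) and for Hk2 against Hk3 0.97 (exact p = 0.171, adjusted p = 0.274). For the hexokinases, as for Ldha against Ldhb (exact p = 0.0857, adjusted p = 0.229), the groups overlapped, and a call in 1 paralog alone does not show that the paralogs differed.

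**Figure D3:**
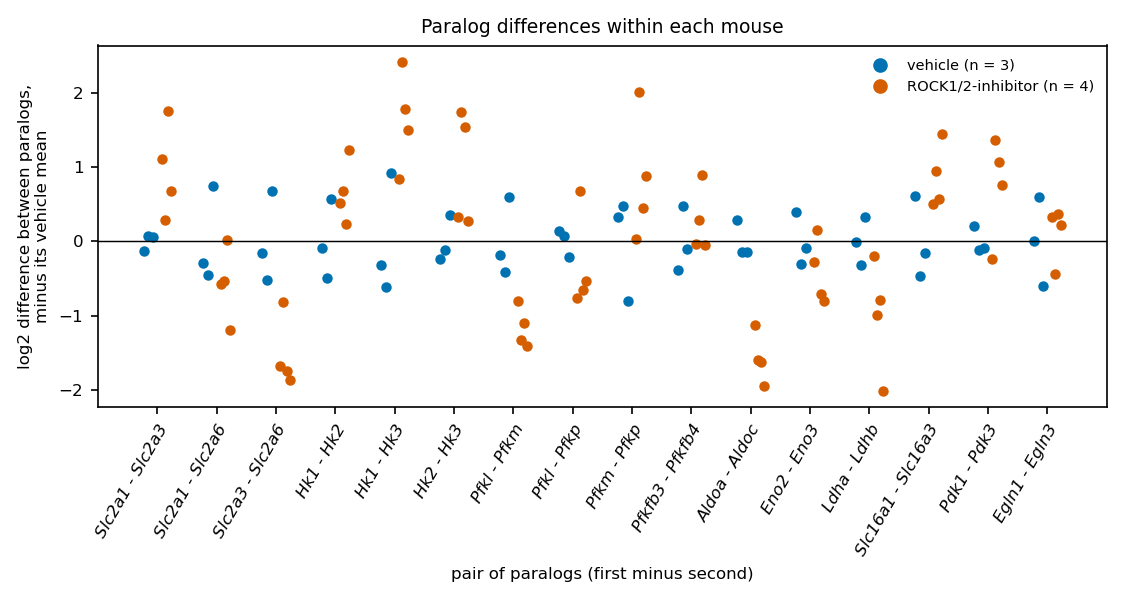
Log2 difference between 2 paralogs within each mouse, minus the vehicle mean of that difference, for 16 pairs (first gene minus second). Points are mice (vehicle n = 3, inhibitor n = 4); the groups are apart for Aldoa and Aldoc, Pfkl and Pfkm, and for Slc2a3 against Slc2a1 and Slc2a6.

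By mouse, the median deviation of the 33 genes from their vehicle means was −0.47 in R1, −0.33 in R2, −0.33 in R3 and −0.60 in R4, against 0.02 in V2, −0.06 in V3 and 0.17 in V4. All 4 inhibitor mice were thus below all 3 vehicle mice by this median. Of the 33 genes, 29, 25, 25 and 26 lay below the vehicle mean in R1 to R4, against 16, 23 and 14 in V2 to V4. By this count V3 lay close to R2 and R3. R4 was the lowest of all mice for 15 of the 33 genes and for 6 of the 7 called genes, and R1 was the highest inhibitor mouse for 5 of the 7. V4 was the highest of all mice for 12 genes and V2 for 8. The array of R4 had the lowest upper quartile (3.35) and that of V4 the highest (3.68), and the part of this in the order of the mice was not tested. After cyclic loess normalization the median deviations were −0.63 in R1, −0.35 in R2, −0.41 in R3 and −0.51 in R4 against −0.01 to 0.10 in vehicle mice, so R1 and R4 changed places while the groups stayed apart. R4 stayed lowest after a second quantile normalization (−0.55, with R1 at −0.52) and after median centring (−0.61, with R1 at −0.45).
The order of the mice was not the same at each step. For the 12 genes of the preparatory phase the median deviation was −0.90 in R1, −0.79 in R2, −0.37 in R3 and −0.82 in R4, and for the 7 genes of the payoff phase −0.29, −0.33, −0.58 and −0.81 in the same order. By this median R1 lay lowest of the inhibitor mice in the first and highest in the second, whereas by the mean log2 intensity of the 12 preparatory genes R4 lay lowest (4.89, with R1 at 4.90). The 5 genes of the hypoxia response had −0.25, 0.08, 0.09 and 0.01 in R1 to R4 and −0.11 to 0.35 in the vehicle mice, so that the groups overlapped. These step medians were not tested.

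**Figure D4:**
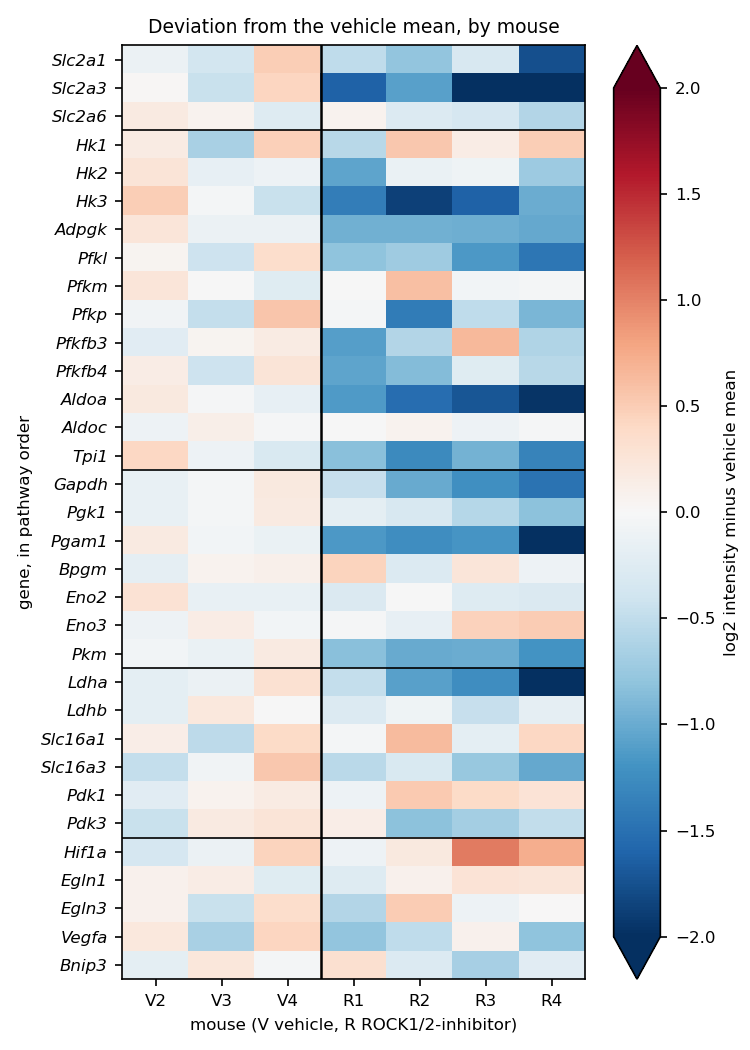
Deviation of each mouse from the vehicle mean (colour, log2 units, capped at 2 either way) for the 33 genes in pathway order; lines part the steps and the groups. Blue cells fill the rows of the called genes in R1 to R4, with R4 lowest for 6 of 7, while the last block, the hypoxia response, holds both colours.

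Brightness differed between the genes that were called and those that were not. The 7 called genes lay at or above the 92.5 percentile of mean brightness over all rows. For 8 genes (Pfkm, Aldoc, Bpgm, Eno2, Eno3, Ldhb, Slc16a1 and Pdk1) both group means lay below the upper quartile of every array, with log2 differences of −0.25 to 0.27, and 0 of them were called. Near the background of the array there is little room for a measured fall, and the part of this in the calls was not tested. The other 25 genes had a median log2 difference of −0.68.

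The core of the hypoxia response element, ACGTG or GCGTG on either strand, was searched in RefSeq promoter windows (GRCm38.p6) of 300 bases, from 250 before to 50 after a transcription start, counting overlapping matches once. It was present in at least 1 window of 29 of the 32 measured genes in that table, 5 of 6 called and 24 of 26 not called, and in 46.7% of all genes of the table. By window, 79.5% of theirs held it, against 43.8% of all windows. Each form of the core holds the letters CG, and windows of like CG content were not compared. Slc2a3 was not in the table. The windows below are those of the called genes Aldoa (chr7:126799205-126799504, minus strand), with 1 match, Pgam1 (chr19:41911621-41911920, plus strand), with 3, and Tpi1 (chr6:124814109-124814408, minus strand), with 0, and of Ldha (chr7:46845554-46845853, plus strand), which was not called and has 5. They were chosen to show windows with few and with many matches. Each is written 5′ to 3′ on the strand of the gene, with matches in capitals, and for Aldoa and Ldha, which have several windows, the window with the most matches is given. A match is a run of letters, not a shown binding site.
Aldoa: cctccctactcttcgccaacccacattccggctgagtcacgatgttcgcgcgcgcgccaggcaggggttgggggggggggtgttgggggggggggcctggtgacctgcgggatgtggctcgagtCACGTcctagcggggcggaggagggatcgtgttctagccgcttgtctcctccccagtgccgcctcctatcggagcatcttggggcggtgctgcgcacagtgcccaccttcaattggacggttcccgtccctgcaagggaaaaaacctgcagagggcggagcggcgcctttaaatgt
Pgam1: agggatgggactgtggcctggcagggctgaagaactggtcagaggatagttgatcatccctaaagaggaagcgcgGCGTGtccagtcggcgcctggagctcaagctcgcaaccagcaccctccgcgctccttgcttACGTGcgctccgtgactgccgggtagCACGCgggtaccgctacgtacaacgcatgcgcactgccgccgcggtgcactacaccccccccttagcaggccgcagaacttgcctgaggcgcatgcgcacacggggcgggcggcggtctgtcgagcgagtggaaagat
Tpi1: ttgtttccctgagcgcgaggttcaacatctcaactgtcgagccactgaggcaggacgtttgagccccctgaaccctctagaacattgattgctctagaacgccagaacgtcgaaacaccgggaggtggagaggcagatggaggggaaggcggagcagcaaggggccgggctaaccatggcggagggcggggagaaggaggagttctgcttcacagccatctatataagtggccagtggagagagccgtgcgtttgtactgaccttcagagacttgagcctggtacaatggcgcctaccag
Ldha: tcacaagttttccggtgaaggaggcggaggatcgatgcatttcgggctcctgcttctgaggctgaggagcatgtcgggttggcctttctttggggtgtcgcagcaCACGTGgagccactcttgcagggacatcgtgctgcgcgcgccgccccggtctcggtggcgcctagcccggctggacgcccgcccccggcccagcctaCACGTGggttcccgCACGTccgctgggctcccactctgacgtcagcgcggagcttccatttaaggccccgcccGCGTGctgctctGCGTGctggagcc

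Routes that branch off glycolysis were described in the same fit. Gys1, the glycogen synthase of most tissues other than liver, fell by 1.73 (standard error 0.29, adjusted p = 0.0269 from limma). Its inhibitor mice lay at 3.46, 4.47, 4.14 and 4.09 and its vehicle mice at 6.37, 5.38 and 5.56. Pgm1, a phosphoglucomutase, fell by 0.97 (adjusted p = 0.0453 from limma). They were the 2 called genes among 19 of glycogen, gluconeogenesis and sugar interconversion, of which none rose and 17 did not pass (median log2 difference −0.12). Of 6 measured genes of the pentose phosphate pathway, which supplies NADPH to the oxidative burst, none passed in limma (2 lower at an unadjusted p under 0.05) and all 6 had a log2 difference below 0 (median −0.50). Pgd, a NADPH-forming enzyme of that pathway, had 8.25, 7.72 and 8.72 in V2 to V4 and 7.64, 7.58, 7.47 and 7.16 in R1 to R4, without overlap (adjusted p = 0.143 from limma), and Pgls had a log2 difference of −0.93 (adjusted p = 0.298). Of 11 genes of pyruvate dehydrogenase and of pyruvate import into mitochondria, none passed (1 higher at an unadjusted p under 0.05, median −0.11), and Dld, a shared subunit of the dehydrogenase complexes, had a log2 difference of 0.91 (adjusted p = 0.136), with every inhibitor mouse above every vehicle mouse. Pdk4, the next by p, had −0.19.
Of 13 further genes of the HIF machinery, Eloc rose and 12 did not pass (median −0.13). Eloc encodes elongin C, a part of the ubiquitin ligase with which VHL marks HIF-1α, and of other ligases. It had 4.97, 5.49 and 5.96 in V2 to V4 and 7.01, 6.40, 7.10 and 6.84 in R1 to R4, a log2 difference of 1.36 (standard error 0.26, adjusted p = 0.0354 from limma). Elob, the gene of its partner elongin B, had −0.56 (adjusted p = 0.299). Of 28 further genes that hypoxia induces, none passed in limma (4 lower and 1 higher at an unadjusted p under 0.05), 18 lay below 0 and the median was −0.16. The nearest to the threshold were the transcription factor gene Bhlhe40, with −0.66 (adjusted p = 0.0545), and Ndrg1, with −1.11 (adjusted p = 0.0708, all from limma), both without overlap between the groups. Of 11 measured isoenzymes and transporters of other tissues, none passed (0 at an unadjusted p under 0.05, median 0.04, with Pgam2 at −0.34 and Slc2a5 at 0.24).

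Markers of cell type and cell state moved with the same comparison. Of 10 genes listed for early neutrophils and primary granules, Mpo, Prtn3, Cebpe and Fcnb fell by 1.62, 1.59, 1.59 and 1.08, and Igsf6, which monocytes also express, rose by 1.10; 9 of the 10 lay below 0. The mean log2 intensity of that list was 6.74 to 7.09 in vehicle-treated and 5.49 to 6.55 in inhibitor-treated mice. In the log2 of its summed intensity, where Igsf6 was the brightest gene, the groups overlapped (10.54 to 10.88 and 10.47 to 10.78). For 14 secondary granule genes the mean was 10.45 to 10.80 in vehicle-treated and 10.23 to 10.43 in inhibitor-treated mice, with Ltf, Cd177 and Itgb2l lower and 10 of the 14 below 0. Their summed intensity did not overlap (14.72 to 14.95 and 14.60 to 14.70). For 14 genes of mature neutrophils the mean was 7.21 to 7.57 in vehicle-treated and 7.72 to 8.25 in inhibitor-treated mice. Stfa2, Stfa2l1 and Clec4d were higher, 12 of the 14 lay above 0, and the median log2 difference was 0.33. Cxcr2 (0.015), Il1r2 (0.008) and Csf3r (−0.014) lay near 0, and Mmp9 had −0.32. Mmp9 and Retnlg are also among the secondary granule genes. The summed intensity of the 14 overlapped (13.50 to 13.66 and 13.62 to 13.87). Of 15 genes of monocytes and macrophages, Ms4a4c and Clec4a3 rose and 13 did not pass. The mean was 4.51 to 4.94 in vehicle-treated and 4.89 to 5.25 in inhibitor-treated mice, but 7 of the 15 lay below 0, the median log2 difference was 0.06, and the groups overlapped in the log2 of the summed intensity (11.14 to 11.79 and 11.38 to 12.01). Among 17 cell cycle genes Mcm2 and Rrm2 fell and 15 did not pass. The mean was 5.77 to 6.38 in vehicle-treated and 5.36 to 5.94 in inhibitor-treated mice, with overlap. Of the 17 genes, 11 lay below 0 and 6 above, with a median log2 difference of −0.50. At an unadjusted p under 0.05 in limma 7 were lower and 1 higher, and without overlap between the groups 4 were lower and 0 higher. Among the 6 above 0 were Pcna, with 0.55 (adjusted p = 0.285), and Mki67, with 0.41 (adjusted p = 0.723, both from limma). In the log2 of the summed intensity the groups overlapped too (10.40 to 11.04 in vehicle-treated and 10.46 to 10.93 in inhibitor-treated mice). None of the measured genes of T cells (9), B cells (7), NK cells (8), erythroid cells (7) or megakaryocytes and platelets (5) passed in limma (4 higher and 0 lower at an unadjusted p under 0.05), and the means of the lymphoid lists lay between 1.71 and 2.29 in all mice, near the array median. The part of these shifts in the fall of the glycolytic genes was not tested.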

How the data were processed

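Gene expression was measured in sorted CD45+CD11b+ splenocytes on 7 Clariom S Mouse arrays, 1 per mouse. Per the labels and methods, the authors normalized the scans by RMA with the oligo package and deposited the values as log2 intensities per gene. Versions are not given in the sources used here. RMA includes a step that aligns the arrays to a common distribution. The deposited values per gene still differed in upper quartile, from 3.35 in R4 to 3.68 in V4. The number of arrays limits the precision, and no detection calls were used.

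Of 22203 rows, 22139 transcript clusters were tested. The platform annotation gives 1 gene for 19572 rows and none for 2631. Groups come from the sample labels. As in the methods, the test was limma (version 3.58.1 under R 4.3.3, linear model with moderated variance, no covariates, two-sided). Benjamini-Hochberg adjustment ran over all tested rows, with a threshold of 0.05. On simulated data it recovered 43 of 100 genes with a log2 difference of 1 in size and 88 of 100 with 2. It called 4 unchanged rows. The simulation changed 200 rows and gave each row independent normal noise of its own spread. Effects shared by the genes of 1 array were not simulated, so these figures do not cover the dependence on single arrays. Promoter windows are from RefSeq (GRCm38.p6). Python 3.11.15, pandas 2.3.3, matplotlib 3.10.9 and statmod 1.5.0 were also used.

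The genes, lists and tests were chosen with earlier results of these data known, and the lists were written from general knowledge. All genes of the group are named. From every other list of a pathway the called genes are named and, with fewer than 2 called, those of smallest p up to 2. For marker lists the called genes are named. Pcna, Mki67, Cxcr2, Il1r2, Csf3r, Mmp9 and Retnlg were not called and were named after their values were seen. The alternatives were a trended and robust variance, array weights, a second quantile normalization, median centring, cyclic loess, leaving out the dimmest 25% of rows, the whole table, named rows alone, means over the rows of a gene, a block for the replicate number, and omission of each array in turn.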

Additional observations from a re-analysis of the deposited data

Results flagged for a closer look

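Within the inhibitor group, 1 mouse lay far from the other 3 for 3 of the 33 genes. Pgam1 was 4.92 in R4 against 5.84 to 5.94 in the other inhibitor mice (gap over range 0.908). Pfkm was 2.63 in R2 against 1.97 to 2.01 (0.934), and Eno2 was 2.04 in R2 against 1.76 to 1.79 (0.871), both dim genes that were not called. Chance gives such a gap in about 1 group in 20, and 39 groups were examined. Without R4 the log2 difference of Pgam1 was −1.19 (adjusted p = 0.0538 from limma), and with all arrays it was −1.43 (adjusted p = 0.0290).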

How the results depend on the processing

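The 7 called genes were called in each of the 9 alternatives that kept all arrays. Some of these left the values of the 33 genes as they were and changed only the rows tested beside them. They were the means over the rows of a gene, the whole table, named rows alone and leaving out the dimmest rows. With the replicate number as a block, R1, which has no vehicle mouse of its number, drops out of the contrast, so 2 choices change at once. That replicate block called 964 of all rows (494 in the main test, 1035 without R1 and with no block) and 8 of the 33 genes, with Hk3 lost (adjusted p = 0.0524 from limma) and Gapdh and Ldha called, as both were without R1. The labels do not say that a number marks a pair. The deviations of same-numbered mice correlated at 0.10 (R2 and V2), −0.13 (R3 and V3) and −0.03 (R4 and V4). R2 alone correlated best with its own number. Whether same-numbered mice were paired cannot be told from these correlations. Gapdh was also called with the trended and robust variance, array weights, cyclic loess and without the dimmest rows, Ldha also with the trended and robust variance, and Pfkl without the dimmest rows. Leaving out 1 array gave 2 to 1035 called rows, 0 to 10 of the 33 genes, a median of −0.62 to −0.39. No paralog pair passed in the 4 alternatives run on them with all arrays, where a pass needs many pairs at the smallest exact p. None passed with 1 array left out, where the smallest exact p (0.0667 or 0.1) let none pass. Genes near 0 changed sign: Egln3 was 0.0232 with array weights, 0.0629 after quantile normalization, 0.0742 after cyclic loess and 0.14 with the block, Aldoc 0.0004 after quantile normalization and 0.0037 after cyclic loess, and Bpgm −0.0463 with the block. With 1 array left out, the ranges were −0.26 to 0.14 for Egln3, −0.0607 to 0.0455 for Aldoc, −0.0463 to 0.19 for Bpgm, −0.16 to 0.40 for Hk1, −0.0363 to 0.25 for Pfkm, −0.0578 to 0.40 for Slc16a1 and −0.0368 to 0.20 for Egln1. The cause of these changes was not tested. No detection calls were used, and how far background limits the 8 dimmest genes was not tested.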
